A study of Mus musculus with 8 samples.

Results

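Ion channels and transmitter receptors were examined on 8 Illumina MouseRef-8 v2 arrays of STHdh cells, as the genes whose symbol in the deposited table belongs to the potassium (Kcn), sodium (Scn), calcium (Cacn) and HCN channel families, the AMPA, NMDA, kainate and metabotropic glutamate receptors or the GABA-A receptors. By this choice of symbols, which used no measured value, 211 of 25697 probes were members, and they carried 140 of 18120 gene symbols. Potassium symbols counted only where a digit follows the family letter, so Kcnma1 and the Kcnmb, Kcnab and Kcnip symbols were left out. STHdh cells are conditionally immortalized wild-type progenitors from the mouse embryonic striatum. Of the cultures, 4 received the empty pcDNA3.1 plasmid (labelled PcDNA3.1 and wild-type, here mock) and 4 received the same plasmid carrying mouse Bcl11b, a zinc finger transcription factor of striatal neurons. The transfection was transient, and both groups were the same line in the same medium with G418. In bulk RNA, a change in the number of responding cells and a change in the RNA of each cell cannot be told apart. The only Bcl11b probe (ILMN_2611022) was detected on 0 of 8 arrays, so the arrays do not show how much of the transfected gene was present.

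Voltage-gated channels open and close with the membrane potential, and their pore-forming alpha subunits travel to the membrane with auxiliary subunits that by themselves carry no current. In medium spiny neurons, inward rectifier potassium channels hold the membrane at a hyperpolarized resting potential, and glutamate from cortex and thalamus drives firing through AMPA and NMDA receptors against inhibition through GABA-A receptors. Calcium that enters through voltage-gated channels also opens calcium-activated potassium channels of the Kcnn family.

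Each probe had 1 background-subtracted signal on an array, with a detection p-value from the comparison of that signal with negative control beads. A probe was called detected on an array at a detection p-value under 0.01, and signals were quantile-normalized and put on the log2 scale. The median signal of an array before normalization lay between 31.6 and 53.9 on the mock arrays and between 20.1 and 30.2 on the Bcl11b arrays, while all probes detected numbered 10121 to 10784 and 10342 to 10644, and member probes detected 14 to 16 and 13 to 18. Markers of the labelled cell type were mostly below the detection limit of these arrays. Of 7 medium spiny neuron markers on the array, 1 was detected (Pde10a, on 3 mock arrays and 1 Bcl11b array), and Ppp1r1b, Drd1a, Drd2, Adora2a, Tac1 and Rgs9 were not. Of 7 neuronal markers, 2 (Nefm and Stmn2) were detected, of 5 neural progenitor markers 4 (Nes, Sox2, Dlx1 and Dlx2), and of 6 mesenchymal markers 4 (Vim, Acta2, Col1a1 and Col3a1). None of 4 astrocyte, 3 oligodendrocyte lineage or 4 microglial markers was detected. Between the groups, some detected markers passed an unadjusted 0.05 in limma, and none passed an adjusted 0.10. They were Pde10a (-0.81 on the log2 scale), Dlx1 (-0.32), 1 of 2 Sox2 probes (ILMN_1248711, -0.71) and 1 of 2 Nes probes (ILMN_2904590, 0.43), and their part in the differences of the channel genes was not tested.

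Most of the channel and receptor genes were not detected in these cells. Of the 211 probes, 24 (11.4%) were detected on at least 1 array, against 11755 of all 25697 probes (45.7%). These 24 probes carried 21 of the 140 genes, and 119 genes were detected on no array. On at least 4 arrays 14 member probes (6.64%) were detected, against 41.3% of all probes, and on all 8 arrays 9 (4.27%), against 36.4%. The share detected was therefore lower in the channel and receptor families than in the table as a whole at every number of arrays examined.

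The receptors for the main striatal transmitters were nearly all below the detection limit. All 26 probes for 18 GABA-A receptor subunits were undetected, as were all 6 probes for metabotropic glutamate receptors. Of the AMPA receptor genes Gria1 to Gria4, Gria3 alone was detected, on 2 mock arrays and 1 Bcl11b array, and of 6 NMDA receptor genes Grin2c alone, on 1 Bcl11b array. Grin1, the subunit that every NMDA receptor needs, was not detected. The exception among the glutamate receptors was Grik5, a kainate receptor subunit that forms channels only together with other kainate subunits. Grik5 was detected on all 8 arrays, whereas Grik1, Grik2 and Grik4 were detected on none.

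Of 98 probes for 67 potassium channel genes, 9 probes for 9 genes were detected. Those detected on at least 4 arrays included Kcnf1, an electrically silent voltage-gated subunit, the inward rectifier Kcnj4 (Kir2.3), the two-pore channels Kcnk2 (TREK-1) and Kcnk13 (THIK-1), and the calcium-activated channels Kcnn1 (SK1) and Kcnn4 (the intermediate-conductance channel). The other inward rectifier detected was Kcnj2 (Kir2.1), on 1 Bcl11b array, and Kcnh1 was detected on 1 mock array. All 8 probes for Kcne auxiliary subunits were undetected. The pore-forming calcium-activated channel Kcnma1, which the choice of symbols left out of these counts, was not detected on any array either.

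For calcium and sodium channels the signal came mainly from auxiliary subunits. Of 9 detected calcium channel probes, 8 were for auxiliary subunits. Cacna2d1 (the alpha2delta subunit), Cacnb2 and Cacnb3 (cytoplasmic beta subunits that carry alpha1 subunits to the membrane) were each detected on all 8 arrays. Of 16 probes for pore-forming alpha1 subunits, a Cacna1c (L-type channel) probe was detected on 1 mock array and the rest on none. Likewise Scn3b, an auxiliary sodium channel subunit, was detected on all 8 arrays by 1 of its probes, while none of 7 probes for pore-forming sodium channel subunits was detected. Among the undetected members, a Cacnb4 probe (ILMN_3123491) lay nearest to the limit, with detection p-values from 0.010 to 0.041 on the 8 arrays. For 9 of the 21 detected genes another probe of the same gene was not detected, so detection of a gene here is detection by at least 1 probe.

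**Figure D1:**
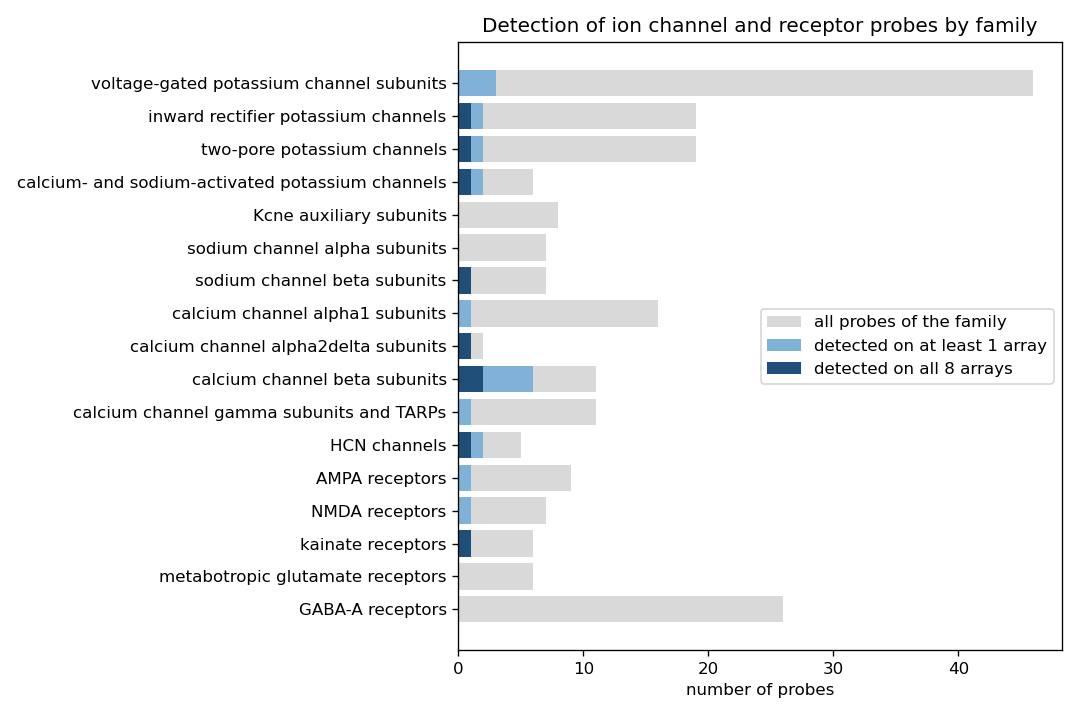
Number of probes (x axis) in each channel or receptor family (y axis), with grey for all probes, light blue for those detected on at least 1 of 8 arrays and dark blue for those detected on all 8. The 26 GABA-A receptor probes show no blue, and the calcium channel beta subunits, with 6 of 11 probes detected, show the most.

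Bcl11b-transfected and mock-transfected cells were then compared in 1 limma fit of the 25697 probes, with Benjamini-Hochberg adjustment over the whole table. None of the 24 detected member probes reached an adjusted p-value under 0.10 in limma, against 1.67% of all probes detected on at least 1 array and 0.981% of all probes. Over all 211 members, detected or not, 11 (5.21%) had an unadjusted p-value under 0.05 in limma, against 10.4% of all probes. These sets are unlike, since 187 of the 211 members were undetected, against 13942 of all 25697 probes. Nothing is therefore read from the lower share. The second threshold of the study, an unadjusted limma p-value under 0.05 together with a difference of at least 0.32 on the log2 scale, was passed by 5 of the 24 detected members (20.8%), against 14.8% of all detected probes (17.7% on the p-value alone). Of these, 3 were lower with Bcl11b (12.5%, against 10.5% of all detected probes) and 2 were higher (8.33%, against 4.32%). Both higher members were detected on Bcl11b arrays alone, so they entered the count through the group in which they were high, and nothing is read from that share. Counted over so few members, these shares were near those of all detected probes. The split of all detected probes was 1229 lower and 508 higher, but 850 and 913 when the arrays were instead scaled by their medians, where 2 members were lower and 2 higher, and 5689 and 36 without normalization between arrays. The 24 fitted differences were split evenly, with 12 higher and 12 lower, and their median was 0.030 on the log2 scale, against -0.016 for all detected probes. The 24 include 8 probes detected in 1 group only, each of which leaned toward that group, so nothing is read from this split. Of the 14 members detected on at least 4 arrays, 6 were higher and 8 lower. Their median was -0.12, against -0.014 for all probes so detected.

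The lower members were the calcium-activated potassium channels Kcnn4 and Kcnn1 and the hyperpolarization-activated channel Hcn2. The normalized log2 signal of Kcnn4 (ILMN_2765032), which opens on a rise of cytosolic calcium without any need for depolarization, was 7.04, 6.73, 7.11 and 7.04 on mock arrays 1 to 4 and 6.50, 6.62, 6.39 and 6.61 on Bcl11b arrays 1 to 4. Every Bcl11b array was thus lower than every mock array. The means were 6.98 ± 0.17 and 6.53 ± 0.11 (SD, n = 4 arrays each), a difference of -0.45 (standard error 0.10) or 1.37-fold lower, with an unadjusted p-value of 0.00338 and an adjusted p-value of 0.181 from limma. Kcnn4 kept an unadjusted p-value under 0.05 in limma with any 1 array left out. Without mock replicate 2 it reached an adjusted p-value of 0.0445 in limma. That array was its lowest mock array, so leaving it out raises the mock mean, and 637 probes of the table then passed, against 252. With any other array left out, the adjusted p-value of Kcnn4 from limma lay between 0.2025 and 0.4072.

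Kcnn1 (ILMN_2664556), the small-conductance channel SK1, contributes to the afterhyperpolarization that follows action potentials. Its log2 signal was 7.53, 7.08, 7.44 and 7.23 on mock arrays 1 to 4 and 6.70, 6.87, 7.01 and 7.06 on Bcl11b arrays 1 to 4. The groups did not overlap, although the lowest mock array (7.08) and the highest Bcl11b array (7.06) nearly met. Kcnn1 was 1.33-fold lower with Bcl11b (-0.41 on the log2 scale, standard error 0.13, unadjusted p = 0.0161 and adjusted p = 0.326 from limma). Kcnn1 and Kcnn4 were the 2 detected member probes with all Bcl11b arrays below all mock arrays (8.33%, against 7.09% of all detected probes). Of the remaining Kcnn genes, Kcnn2 and Kcnn3 were not detected on any array.

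Hcn2 (ILMN_2672624) carries an inward cation current that is opened by hyperpolarization and modulated by cyclic AMP. Its log2 signal was 7.70, 7.05, 7.42 and 8.21 on mock arrays 1 to 4 and 7.12, 7.01, 6.57 and 6.92 on Bcl11b arrays 1 to 4. Mock replicate 2 lay within the range of the Bcl11b arrays, and mock replicate 4 was the highest. The mean was 1.61-fold lower with Bcl11b (-0.69 on the log2 scale, standard error 0.26, unadjusted p = 0.0361 and adjusted p = 0.431 from limma). This call was the least stable of the 3. It was kept without mock replicate 2 (unadjusted p = 0.0107) and without Bcl11b replicate 1 (unadjusted p = 0.0460), and was lost when any of the remaining 6 arrays was left out, with an unadjusted p of up to 0.0890 from limma, and under scaling by array medians (unadjusted p = 0.0505).

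The 2 members that passed in the upward direction, Hcn3 and Cacng7, were at the detection limit. Hcn3 (ILMN_2482138), a relative of Hcn2, was detected on no mock array and on Bcl11b replicates 2 and 3, with log2 signals of 5.37, 5.32, 5.69 and 5.56 on the mock arrays and 5.91, 6.58, 6.53 and 5.96 on the Bcl11b arrays. Every Bcl11b value was above every mock value, for Hcn3 alone of the detected members (4.17%, against 2.97% of all detected probes). Hcn3 counted as detected through Bcl11b arrays only, so this separation is a description. The unadjusted p-value from limma was 0.00658 and the adjusted one 0.227, and no fold is given because the mean on the Bcl11b arrays did not exceed the dimmest detected signals of the mock arrays. The call was lost without normalization between arrays (unadjusted p = 0.947 from limma). Cacng7 (ILMN_2599327), which assists AMPA receptors at the membrane, was detected on Bcl11b replicate 4 alone. Its log2 signals were 4.24, 5.73, 4.91 and 5.13 on the mock arrays and between 5.57 and 6.35 on the Bcl11b arrays (unadjusted p = 0.0307 and adjusted p = 0.402 from limma). The groups overlapped, no fold is given for the same reason, and the p-value stayed under 0.05 only without mock replicate 2 or without Bcl11b replicate 2 when 1 array was left out.

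**Figure D2:**
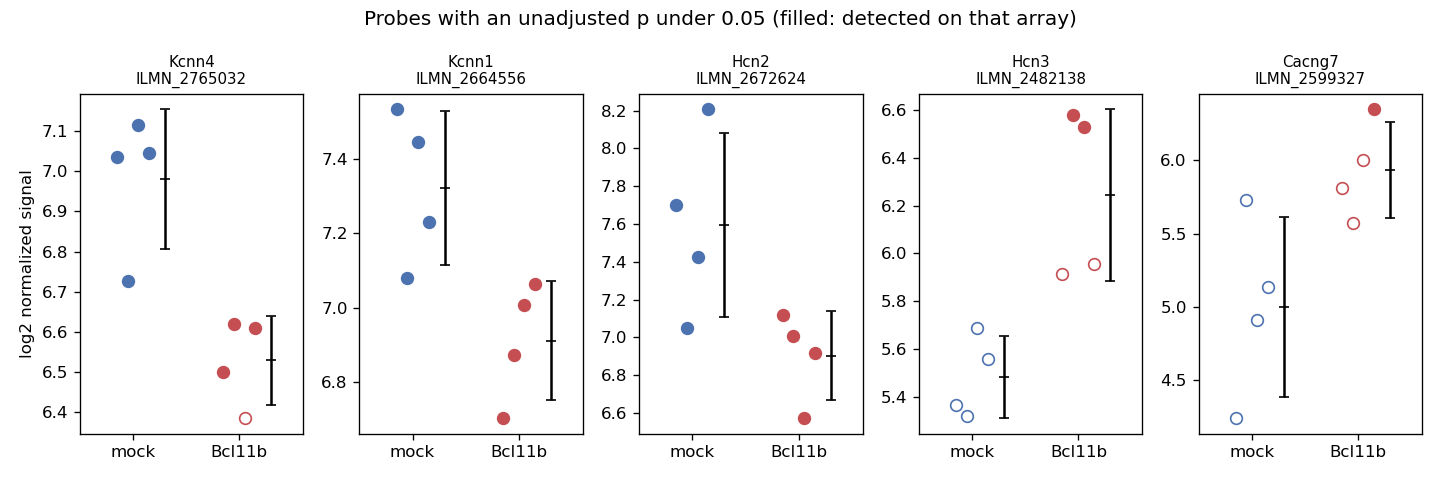
Log2 normalized signal (y axis, a separate scale in each panel) of the 5 detected probes with an unadjusted p-value under 0.05, by group, with 1 point per array, filled where the probe was detected on that array, and the mean with SD beside the points (n = 4). Kcnn4 and Kcnn1 separate the groups with points that are filled but for 1 Bcl11b point of Kcnn4, whereas all mock points of Hcn3 and Cacng7 are open.

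The RefSeq promoter windows of the genes that were lower with Bcl11b are given here so that the DNA letters around their start sites can be set beside the motifs that the study derived for Bcl11b. A window holds 250 bases before and 50 bases after a start site in GRCm38.p6. Of the 5 genes with an unadjusted p-value under 0.05, 4 have a window in the table used, and Hcn3 does not. Windows are shown for Kcnn4 (chr7:24370013-24370312, plus strand), for both start sites of Kcnn1 on the minus strand (chr8:70863209-70863508, upstream, and chr8:70856959-70857258, downstream) and for Hcn2 (chr10:79716384-79716683, plus strand). Capitals mark every match, on either strand, to ACCACA (present in 16.8% of all 32851 windows), TGCTTG (16.4%), AGTGCT (15.4%), AGAGTG (16.4%), AGTGTG (17.1%) or GGATCA (9.24%).
Kcnn4 window: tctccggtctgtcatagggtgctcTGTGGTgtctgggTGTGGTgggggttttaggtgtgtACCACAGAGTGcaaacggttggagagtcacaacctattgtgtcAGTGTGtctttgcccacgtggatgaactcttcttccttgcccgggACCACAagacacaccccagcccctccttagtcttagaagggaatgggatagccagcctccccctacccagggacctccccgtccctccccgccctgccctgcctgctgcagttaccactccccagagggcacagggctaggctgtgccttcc
Kcnn1 upstream window: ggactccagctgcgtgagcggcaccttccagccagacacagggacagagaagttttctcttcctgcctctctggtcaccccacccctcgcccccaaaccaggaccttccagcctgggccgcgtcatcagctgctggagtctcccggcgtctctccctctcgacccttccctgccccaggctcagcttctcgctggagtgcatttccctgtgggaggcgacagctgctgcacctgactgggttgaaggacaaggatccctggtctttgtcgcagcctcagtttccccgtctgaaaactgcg
Kcnn1 downstream window: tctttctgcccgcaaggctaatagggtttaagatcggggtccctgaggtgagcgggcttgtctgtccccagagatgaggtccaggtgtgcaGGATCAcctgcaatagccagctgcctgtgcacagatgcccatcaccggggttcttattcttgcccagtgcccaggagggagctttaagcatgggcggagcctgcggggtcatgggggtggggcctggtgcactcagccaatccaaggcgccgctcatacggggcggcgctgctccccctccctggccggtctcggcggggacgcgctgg
Hcn2 window: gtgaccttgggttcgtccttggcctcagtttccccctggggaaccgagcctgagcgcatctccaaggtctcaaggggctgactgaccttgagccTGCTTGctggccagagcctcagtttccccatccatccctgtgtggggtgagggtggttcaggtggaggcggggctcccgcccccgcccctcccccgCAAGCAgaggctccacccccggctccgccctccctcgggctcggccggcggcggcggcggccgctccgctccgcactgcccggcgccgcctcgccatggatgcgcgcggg

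The Kcnn4 window held ACCACA 4 times, on both strands, together with AGAGTG, which overlaps 1 of them, and AGTGTG. Of all windows, 15 (0.0457%) held ACCACA at least 4 times. The upstream Kcnn1 window held no match and the downstream one held GGATCA. The Hcn2 window held TGCTTG once on each strand, and 1.71% of windows held it at least 2 times. These windows and the counts of repeated matches were chosen after the values were seen. The letters of none of the motifs occur in the Cacng7 window. At least 1 of the 6 motifs was present in 59.6% of all windows and in 14 of 26 windows of the detected members, of which 17 of 21 genes have one. The study derived ACCACA from bound regions at any genomic location, and it proposes that most Bcl11b sites lie far from proximal promoters. Read on the other strand, ACCACA is TGTGGT, which the study also lists as a motif of the factor AML1. A match of letters is a description and not a binding site.

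The other potassium channel probes named as detected on at least 4 arrays did not pass the unadjusted threshold. Kcnk2 (ILMN_1226055), a mechanically gated background channel, had log2 signals of 6.68, 6.24, 6.60 and 7.18 on the mock arrays and 6.35, 6.23, 5.76 and 6.32 on the Bcl11b arrays. It was detected on 4 mock arrays and 2 Bcl11b arrays, and mock replicate 2 fell among the Bcl11b arrays. The difference of -0.51 (standard error 0.23) had an unadjusted p-value of 0.0657 from limma, and it was -0.65 with a unadjusted p-value of 0.0258 from limma without mock replicate 2. The difference was -0.21 (standard error 0.19, unadjusted p = 0.326 from limma) for Kcnj4 and 0.14 (standard error 0.14, unadjusted p = 0.348 from limma) for Kcnk13. For Kcnf1 it was 0.42 (standard error 0.39, unadjusted p = 0.317 from limma). Kcnf1 spanned 6.36 to 7.79 on the mock arrays and 7.18 to 8.27 on the Bcl11b arrays, so its groups overlapped.

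No detected probe of the calcium channel beta subunits passed the unadjusted threshold. Cacnb2 (ILMN_1217815) had log2 signals of 7.39, 7.79, 7.38 and 8.33 on the mock arrays and 7.38, 7.33, 6.56 and 7.06 on the Bcl11b arrays, a difference of -0.64 (standard error 0.28, unadjusted p = 0.0613 from limma) that missed the threshold. It passed with neqc normalization (unadjusted p = 0.0414 from limma), with only probes detected on at least 4 arrays in the fit (unadjusted p = 0.0344) and without normalization between arrays (unadjusted p = 0.0124). In the fit without normalization, 5689 of all detected probes were called lower and 36 higher, so that pass is not particular to Cacnb2. A dimmer Cacnb2 probe (ILMN_2606862), detected on Bcl11b replicate 4 alone, lay between 3.19 and 5.22 on the mock arrays and between 4.69 and 6.36 on the others, so the fitted differences of the Cacnb2 probes had opposite signs. Cacnb3 was read by 3 detected probes, of which the brightest (ILMN_3153753) had log2 signals of 9.40, 10.28, 9.12 and 9.48 on the mock arrays and 9.65, 9.41, 10.12 and 9.98 on the Bcl11b arrays. Mock replicate 2 was the highest of all 8 arrays, and the difference was 0.22 (standard error 0.29, unadjusted p = 0.474 from limma). The other detected Cacnb3 probes had differences of 0.87 (ILMN_2702286, standard error 0.48, unadjusted p = 0.116 from limma) and 0.60 (ILMN_2626333, standard error 0.63, unadjusted p = 0.376 from limma). Both passed an unadjusted 0.05 without mock replicate 2, at 1.19 each (unadjusted p = 0.0369 and 0.0112 from limma), whereas the brightest probe did not. Cacna2d1 had nearly equal means, 8.09 ± 0.32 and 8.06 ± 0.24 (SD, n = 4 arrays each). Scn3b (ILMN_2451346) had means of 6.96 ± 0.29 and 6.75 ± 0.054 (SD, n = 4 arrays each), a difference of -0.21 (standard error 0.14, unadjusted p = 0.190 from limma). It passed an unadjusted 0.05 with mock replicate 4 left out, at -0.33 (unadjusted p = 0.0160 from limma). Without normalization between arrays it passed as well, at -0.94 (unadjusted p = 0.00258 from limma), where the median difference of all detected probes was -0.68.

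The kainate subunit Grik5 (ILMN_3163110) had log2 signals of 7.41, 8.45, 7.02 and 7.67 on the mock arrays and 7.53, 7.70, 8.17 and 8.46 on the Bcl11b arrays. Again mock replicate 2 stood with the 2 highest Bcl11b arrays, and the difference of 0.33 (standard error 0.36, unadjusted p = 0.398 from limma) was smaller than the spread within the mock arrays. Gria3, at -0.34 (standard error 0.38, unadjusted p = 0.404 from limma), was detected on 3 arrays in all. For the 8 probes detected in 1 group only (Cacna1c, Cacnb1, the dimmer Cacnb2 probe, Cacng7, Hcn3, Kcnh1, Kcnj2 and Grin2c) no fold is given, since no lower bound above 1 was reached for any of them.

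**Figure D3:**
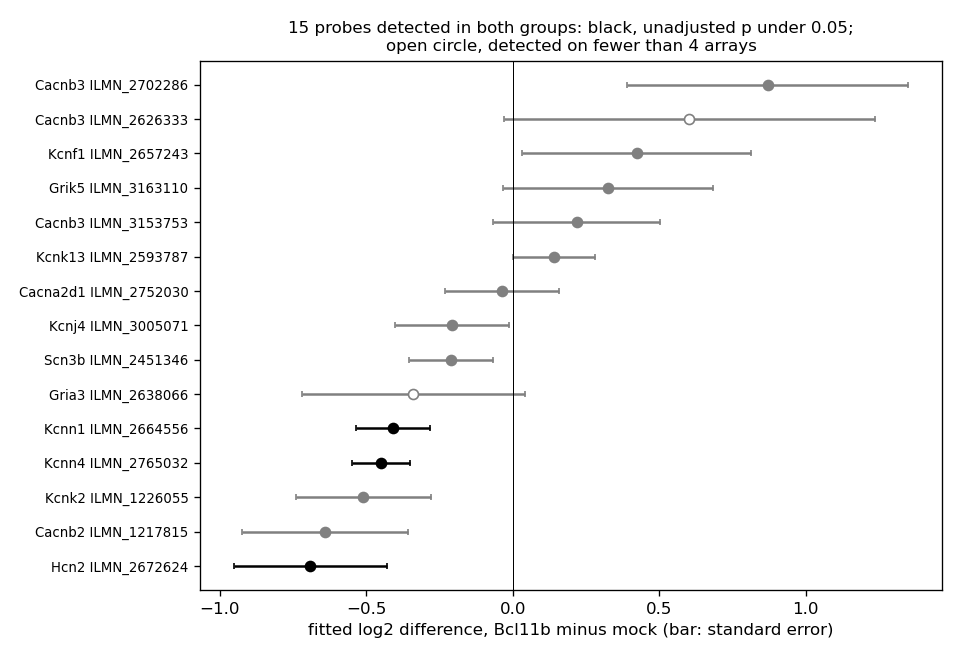
Fitted log2 difference, Bcl11b minus mock, with its standard error (x axis), for 15 member probes detected on at least 1 array of each group (y axis), black where the unadjusted p-value was under 0.05 and open where fewer than 4 arrays detected the probe. The black points are Hcn2, Kcnn4 and Kcnn1, all to the left of 0.

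The mock arrays varied more than the Bcl11b arrays in these genes. Of the 14 probes detected on at least 4 arrays, 13 had the larger SD on the mock arrays (92.9%), as did 63.1% of the 10622 probes so detected in the whole table. Mock replicate 2 was the highest or lowest mock array for 11 of the 14 probes, against 5 or 6 for each of the other mock arrays. This was not counted over the whole table, so it is not read as a trait of the channel genes. For all 3 detected Cacnb3 probes and for Grik5, mock replicate 2 was the highest mock array and Bcl11b replicates 3 and 4 were the highest Bcl11b arrays. For Kcnn4, Kcnn1, Hcn2 and Kcnk2, mock replicate 2 was instead the lowest mock array. Without it these differences were -0.54, -0.49, -0.88 and -0.65, larger by construction, since leaving out the lowest mock array raises the mock mean. Over the whole table, 637 probes passed the adjusted threshold without that array, against 252 with it. The probes drawn in the plot of array patterns were chosen after their values were seen. What set this array apart from the other mock arrays was not tested.

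**Figure D4:**
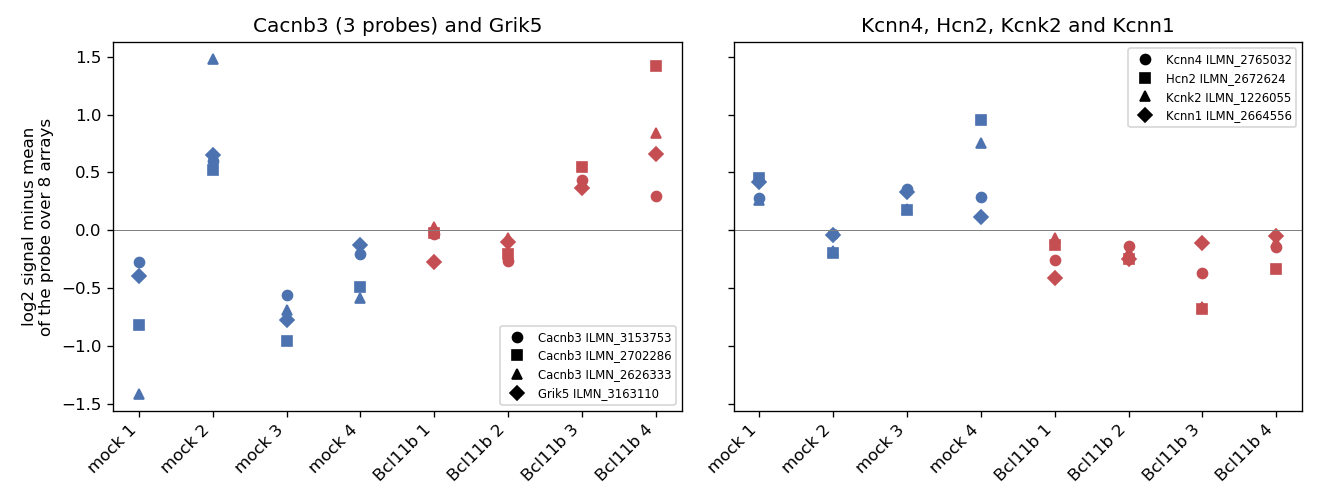
Log2 signal of each probe minus its own mean over the 8 arrays (y axis) by array (x axis, blue for mock and red for Bcl11b). On the left mock replicate 2 lies above 0 with Bcl11b replicates 3 and 4 for the Cacnb3 probes and Grik5, and on the right it is the lowest mock array for Kcnn4, Hcn2, Kcnk2 and Kcnn1.

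Related genes that the choice of symbols left out were read from 4 lists. Of 20 auxiliary subunits and relatives on the array, such as Kcnip and Kcnab proteins, 6 were detected on 7 probes, and 0 passed both parts of the threshold in limma. The study lists Kcnip2 among the striatal-enriched genes that Bcl11b regulates. Here no Kcnip2 probe was detected on any array, so no direction is read for it. Grina, at -0.19, had an unadjusted p-value of 0.0425 from limma and a difference under the size required. Of 7 genes on the array for calcium release and store-operated entry, 4 were detected (Itpr1, Itpr2, Itpr3 and Stim1) and 0 passed in limma, with unadjusted p-values of 0.0878 or more. Of 22 other striatal transmitter receptors, Adora1 and Adora2b were detected, and no dopamine, opioid, muscarinic or serotonin receptor of the list was. The 2 detected Adora1 (adenosine A1 receptor) probes disagreed, with a difference of 0.44 (ILMN_1254016, standard error 0.10, unadjusted p = 0.00468 and adjusted p = 0.199 from limma) and one of 0.021 (ILMN_3143358, standard error 0.17).

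The receptor scaffold and trafficking list had 14 genes on the array, of which 9 were detected on 13 probes, with 3 probes higher and 2 lower at the same threshold and none past the adjusted one. Over all detected probes 4.32% were higher and 10.5% lower, and 1 of the 3 higher probes, for Ank3, was detected on 1 Bcl11b array alone. Gabarapl1, a relative of the GABA-A receptor-associated protein that acts in trafficking and autophagy, had log2 means of 9.42 ± 0.20 on the mock and 9.94 ± 0.12 on the Bcl11b arrays (SD, n = 4 arrays each), with all Bcl11b arrays above all mock arrays. Its difference was 0.53 (standard error 0.11, unadjusted p = 0.00263 and adjusted p = 0.165 from limma). Gabarap was higher as well (0.46, standard error 0.19, unadjusted p = 0.0476 from limma), while Gabarapl2 was lower (-0.50, standard error 0.18, unadjusted p = 0.0331 from limma). Lin7c, a scaffold that binds receptors and channels through its PDZ domain, was lower (-0.67, standard error 0.24, unadjusted p = 0.0285 from limma). The Ank3 (ankyrin-G) probe detected on all 8 arrays differed by 0.11 (standard error 0.20). Members of the list thus passed in both directions, and its detected probes had a median difference of 0.11, against -0.016 for all detected probes. That median includes the Ank3 probe detected on 1 Bcl11b array alone, which entered through the group in which it was high. Nothing is therefore read from the median.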

How the data were processed

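RNA of 4 mock-transfected and 4 Bcl11b-transfected cultures was hybridized to Illumina MouseRef-8 v2 arrays, and groups and replicate numbers were taken from the labels. For each probe and array the authors deposited an intensity, averaged over beads and background-subtracted (GenomeStudio) but not normalized between arrays, and a detection p-value. On each array 30.6% to 31.6% of the signals were 0 or negative. Here quantile normalization came first, values under 1 were then raised to 1, and log2 values were fitted with limma (version 3.58.1, in R 4.3.3; lmFit and eBayes) over all 25697 probes without covariates. The thresholds were those of the study. The members and gene lists were set by symbol and gene family and not by measured values, but earlier results of these data were known when they were chosen. Named probes are members detected on at least 4 arrays, or on at least 1 with an unadjusted p-value under 0.05. For a probe not detected in 1 group, a lower bound was sought against the dimmest detected signals of that group. The p-values measure the spread between sets of transfected cells, and their precision is limited by the number of arrays. The fit was tested on simulated data. Alternatives were other normalizations, an offset, a detection filter, a block for the replicate number, limma-trend, arrayWeights, no fold threshold, other detection limits and leaving out each array. The motifs are those named by the study. The ChIP-seq data were not used here. A detected member that these rules would name is not reported here, though counts include it.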

Additional observations from a re-analysis of the deposited data

How the results depend on the processing

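The number of member probes past an adjusted p-value of 0.10 was 1, a Scn3b probe not detected on any array. It was 0 without normalization between arrays, with an offset of 16, with only probes detected on at least 4 arrays, with the replicate block and with limma-trend. It was 4 with arrayWeights, of which Kcnn4 alone (adjusted p = 0.0860 from limma) was a detected probe. The others were probes of Gria1, Kcnj16 and Scn3b that no array detected. The number ranged from 1 to 2 with each array left out. The 3 detected probes called lower became 10 without normalization, where the median difference of all probes was -0.49 on the log2 scale, 5 with neqc, 5 with the detection filter and 1 with the replicate block, and ranged from 2 to 4 with each array left out. The 2 called higher became 0 without normalization, 0 with the detection filter, which leaves out both, and 1 with the replicate block, and ranged from 1 to 4, the highest without mock replicate 2. Dropping the fold threshold changed neither count. The detection filter left 14 member probes. Of all 11755 detected probes, 1229 were called lower and 508 higher. These became 5689 and 36 without normalization, 1361 and 635 with neqc, and 1009 and 656 with the replicate block. With the filter they were 1157 and 579 of 10622 probes. With each array left out they ranged from 810 to 1586 and from 339 to 907. At a detection p-value under 0.05, 40 member probes (19%) were detected on at least 1 array, against 53.4% of all probes. At the limit of 0.01 used throughout, 9 were detected on all 8 arrays. Kcnk2 passed an unadjusted 0.05 with neqc (unadjusted p = 0.0466 from limma), with the detection filter (0.0449) and without normalization (0.0199). Of all probes, 252 passed the adjusted threshold, against 45 with the replicate block or limma-trend, 57 without normalization, 146 with median scaling, 413 with neqc and 642 with arrayWeights, and from 87 to 637 with each array left out. Without normalization the difference reversed to -0.47 for the brightest Cacnb3 probe, -0.41 for Grik5, -0.61 for Kcnk13 and -0.33 for Kcnf1, each a change of direction only on a scale where most probes were lower. With each array left out, Cacna2d1 ranged from -0.19 to 0.053. Not every same-numbered pair of arrays deviated from its group means together (correlations of 0.677, -0.63, 0.182 and 0.695 over probes detected on all arrays), so the replicate numbers were not taken as pairs. With the replicate block Hcn3 and Kcnn4 kept an unadjusted p-value under 0.05, and Kcnn1 (unadjusted p = 0.0553 from limma), Hcn2 (0.0572) and Cacng7 (0.0684) did not.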

Other observations

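Some members passed an unadjusted p-value of 0.05 from limma without being detected on any array. They were 6 of the 187 undetected member probes, for 5 genes (Gria1, Gabrb2, Gabrp, Kcnj16 and 2 probes of Scn3b), named here after their values were seen. Of all members, detected or not, 5.21% passed that p-value in limma, against 10.4% of all probes. Of all probes 2670 passed, 2082 of them among the 11755 detected ones. The rest were among the 13942 undetected probes, so passing while undetected was not particular to the members. The Scn3b probe ILMN_1215136 had an adjusted p-value of 0.0279 from limma. Its normalized signal was at the floor of 1 (log2 signal 0) on all 4 mock arrays and its log2 signals were 4.21, 2.95, 4.27 and 5.15 on the Bcl11b arrays, with detection p-values there of 0.0702 to 0.259. A second Scn3b probe (ILMN_1227604) was at the floor on all 4 mock arrays as well, with up to 3.75 on the Bcl11b arrays. The Scn3b probe detected on all 8 arrays was not higher with Bcl11b, at a difference of -0.21.

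Among the 30 groups of 4 arrays formed by the named probes, no array stood far from the other 3 by Dixon's criterion at 95%.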
